A study of Mus musculus with 10 samples.

Results

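The genes described here are 8 genes that had lower counts in COX-deficient melanoma tumors than in COX-competent tumors: the secreted factor genes *Stc1*, *Clu* and *Cck*, the receptor partner gene *Ramp3*, the transcription factor genes *Foxa2* and *Esx1*, the keratin-associated protein gene *Krtap4-16* and the fibrinogen chain gene *Fgb*. They are 8 of the 45706 genes in the count table and all 8 are among the 14550 genes with enough counts to be tested. They were chosen by their counts in the *Ptgs*+/+ and *Ptgs*-/- libraries, so their difference between those groups is a description with no test. The question was whether they stayed low once natural killer (NK) cells were removed.

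RNA came from whole tumors of *Braf*-driven melanoma cells grown under the skin of C57BL/6 mice, 8 weeks old, and taken on day 4. *Ptgs*+/+ tumors (n = 4) were of COX-competent parental cells, and *Ptgs*-/- tumors (n = 3) were of cells in which *Ptgs1* and *Ptgs2*, which encode COX-1 and COX-2, had been disrupted by CRISPR/Cas9, both in mice with NK cells. The third group (n = 3) was of *Ptgs*-/- cells in mice treated on days 0 and 2 with anti-NK1.1 (200 µg) plus anti-asialo-GM1 (30 µg), called NK-depleted *Ptgs*-/- tumors below. There is no NK-depleted *Ptgs*+/+ group, so depletion in COX-competent tumors was not analysed here. Whether the *Ptgs*-/- cells are 1 clone is not given in the sources used here, and other differences between the edited and the parental cells cannot be told apart from the loss of COX. In whole tumors, fewer cells of a type and less RNA per cell cannot be told apart either.

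COX enzymes make prostaglandins, of which prostaglandin E2 acts in part through receptors that raise cyclic AMP. Cyclic AMP drives transcription through CREB-family factors at elements in promoters. In tumors prostaglandin E2 is known for drawing in myeloid cells and restraining NK cells. Among the 8 genes, *Stc1* encodes stanniocalcin-1, a secreted glycoprotein first known for calcium and phosphate handling, and *Clu* encodes clusterin, a secreted chaperone. *Cck* encodes cholecystokinin, a peptide hormone of gut and brain, and *Ramp3* encodes a membrane partner that turns the calcitonin receptor-like receptor (*Calcrl*) into an adrenomedullin receptor. *Foxa2* encodes a forkhead pioneer factor of endoderm and liver, and *Esx1* an X-linked homeobox factor of placenta and testis. *Krtap4-16* encodes a hair shaft matrix protein, and *Fgb* the beta chain of fibrinogen, made mainly in liver.

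Promoter sequences are shown for the 4 of these genes that hold a match to an element searched for, because these genes were low together in *Ptgs*-/- tumors. RefSeq (GRCm38.p6) gave the 250 bases before the start of 6 of the 8 genes, and *Stc1* and *Clu* had no entry. The elements, searched on both strands, were the cyclic AMP response element TGACGTCA, its core TGACG, the variant TGCGTCA, the AP-1-like pattern TGANTCA, and the forkhead elements TGTTTAC and TGTTTGC. In TGANTCA, N is any base, and the pattern is wider than the AP-1 element, which has C or G there. Capitals mark the matches, and each sequence runs 5′ to 3′ on the minus strand, the strand of the gene.
*Cck*, chr9:121495695-121495944: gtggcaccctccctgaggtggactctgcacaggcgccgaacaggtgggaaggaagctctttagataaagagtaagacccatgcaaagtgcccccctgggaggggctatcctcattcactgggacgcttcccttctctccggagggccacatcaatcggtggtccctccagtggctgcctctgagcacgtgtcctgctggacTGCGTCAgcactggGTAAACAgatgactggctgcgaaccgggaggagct
*Fgb*, chr3:83049864-83050113: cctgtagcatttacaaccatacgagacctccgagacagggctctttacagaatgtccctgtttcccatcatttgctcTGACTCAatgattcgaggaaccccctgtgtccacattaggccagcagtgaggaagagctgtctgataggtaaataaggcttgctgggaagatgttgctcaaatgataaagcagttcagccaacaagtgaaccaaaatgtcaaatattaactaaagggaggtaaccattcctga
*Esx1*, chrX:137120327-137120576: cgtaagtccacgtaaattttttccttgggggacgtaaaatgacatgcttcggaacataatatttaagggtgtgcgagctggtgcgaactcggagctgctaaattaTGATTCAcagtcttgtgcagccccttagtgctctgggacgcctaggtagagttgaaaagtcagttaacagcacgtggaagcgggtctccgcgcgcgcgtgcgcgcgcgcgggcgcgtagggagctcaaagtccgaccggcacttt
*Krtap4-16*, chr11:99851606-99851855: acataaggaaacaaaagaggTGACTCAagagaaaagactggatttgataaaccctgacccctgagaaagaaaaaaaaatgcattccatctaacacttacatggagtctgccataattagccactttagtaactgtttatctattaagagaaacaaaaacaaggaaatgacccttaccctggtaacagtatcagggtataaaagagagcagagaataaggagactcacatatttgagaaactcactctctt
The *Cck* promoter holds the variant TGCGTCA, which overlaps the core TGACG read on the other strand 47 bases before the start, and a forkhead element on the other strand 35 bases before it. *Fgb* and *Krtap4-16* each hold the AP-1 element TGACTCA, 173 and 230 bases before the RefSeq start. *Esx1* holds TGATTCA, 145 bases before it, which matches the wider pattern but is not the AP-1 element. The *Esx1* window lies inside the gene span given below, in which this minus-strand gene starts at 137122083, so the 2 annotations differ in its start. The promoters of *Ramp3* and of the 3 annotated starts of *Foxa2* hold no match. Over 32851 promoters of the same length, TGCGTCA was found in 1.75%, TGACG in 17.8%, TGANTCA in 6.75%, TGTTTAC in 3.17%, TGACGTCA in 1.55% and TGTTTGC in 4.3%. A match describes the letters and is not evidence of binding.

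*Stc1* (ENSMUSG00000014813, GRCm38 chromosome 14, 69029238 to 69041804, plus strand) fell and stayed low without NK cells. Its level in CPM, counts scaled to a common library size, was 206, 225, 137 and 144 in *Ptgs*+/+ tumors. In *Ptgs*-/- tumors it was 13.6, 13.8 and 9.92, and in NK-depleted *Ptgs*-/- tumors 15.7, 15.9 and 17.0. No library of either *Ptgs*-/- group reached the *Ptgs*+/+ range, and the NK-depleted libraries all lay a little above the other *Ptgs*-/- libraries. The fitted log2 fold change was -3.85 (95% interval -4.31 to -3.38) in *Ptgs*-/- tumors. In NK-depleted tumors it was -3.46 (-3.91 to -3.00), 11-fold lower than *Ptgs*+/+, with an edgeR quasi-likelihood adjusted p of 9.73e-06. Adjusted p-values are over the 14550 genes tested, and a gene was called when the false discovery rate (FDR) was 0.05 or less and the change was 1.5 or more on the log2 scale. This comparison shares its 4 *Ptgs*+/+ libraries with the choice of the genes, here and for each gene below. Its p-values are therefore not independent of that choice. Between the NK-depleted and the other *Ptgs*-/- tumors the log2 difference of *Stc1* was 0.39 (-0.08 to 0.85; edgeR adjusted p = 0.551).

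*Clu* (ENSMUSG00000022037, chromosome 14, 65968483 to 65981547, plus strand) was at 551, 820, 628 and 404 CPM in *Ptgs*+/+ tumors. It was at 50.2, 39.4 and 57.3 CPM in *Ptgs*-/- tumors and at 71.6, 83.0 and 53.6 CPM in NK-depleted ones. The *Ptgs*-/- groups overlapped each other and neither overlapped *Ptgs*+/+ tumors. The log2 fold change against *Ptgs*+/+ tumors was -3.62 (-4.18 to -3.05) with NK cells. Without NK cells it was -3.11 (-3.66 to -2.57; edgeR adjusted p = 5.03e-05), 8.65-fold lower. NK-depleted and other *Ptgs*-/- tumors differed by 0.50 (-0.03 to 1.04; edgeR adjusted p = 0.483), an interval that reaches a doubling on the log2 scale.

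*Ramp3* (ENSMUSG00000041046, chromosome 11, 6658521 to 6677475, plus strand) was at 171, 194, 198 and 134 CPM in *Ptgs*+/+ tumors. It was at 24.7, 18.6 and 23.4 CPM in *Ptgs*-/- tumors and at 16.3, 24.6 and 16.3 CPM in NK-depleted ones. Here too the *Ptgs*-/- groups overlapped each other and stayed under the lowest *Ptgs*+/+ library. The log2 fold change was -2.97 (-3.40 to -2.53) in *Ptgs*-/- tumors, the smallest fall of the 8 genes. In NK-depleted tumors it was -3.19 (-3.63 to -2.75; edgeR adjusted p = 1.24e-05), and the NK-depleted tumors differed from the other *Ptgs*-/- tumors by -0.22 (-0.66 to 0.22; edgeR adjusted p = 0.742).

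*Cck* (ENSMUSG00000032532, chromosome 9, 121489824 to 121495694, minus strand) was low in *Ptgs*+/+ tumors and close to the detection floor in the others. *Ptgs*+/+ libraries held 82, 66, 57 and 46 counts, or 6.51, 7.08, 5.13 and 4.81 CPM. Counts were 2, 4 and 4 in the *Ptgs*-/- tumors and 3 in each NK-depleted one. A floor of 3 counts is 0.238 to 0.364 CPM in these libraries. The log2 fold change was -4.07 (-4.74 to -3.40) in *Ptgs*-/- tumors and -4.25 (-4.93 to -3.57; edgeR adjusted p = 3.65e-05) in NK-depleted ones. *Cck* passed the filter on low counts only through the *Ptgs*+/+ libraries in which it was chosen to be high. The p-value is therefore no independent test of staying low. From the counts alone, scaled by library size, *Ptgs*+/+ tumors held 19.8 times the level of NK-depleted tumors (95% interval 10.3 to 43.9, counting error only).

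**Figure D1:**
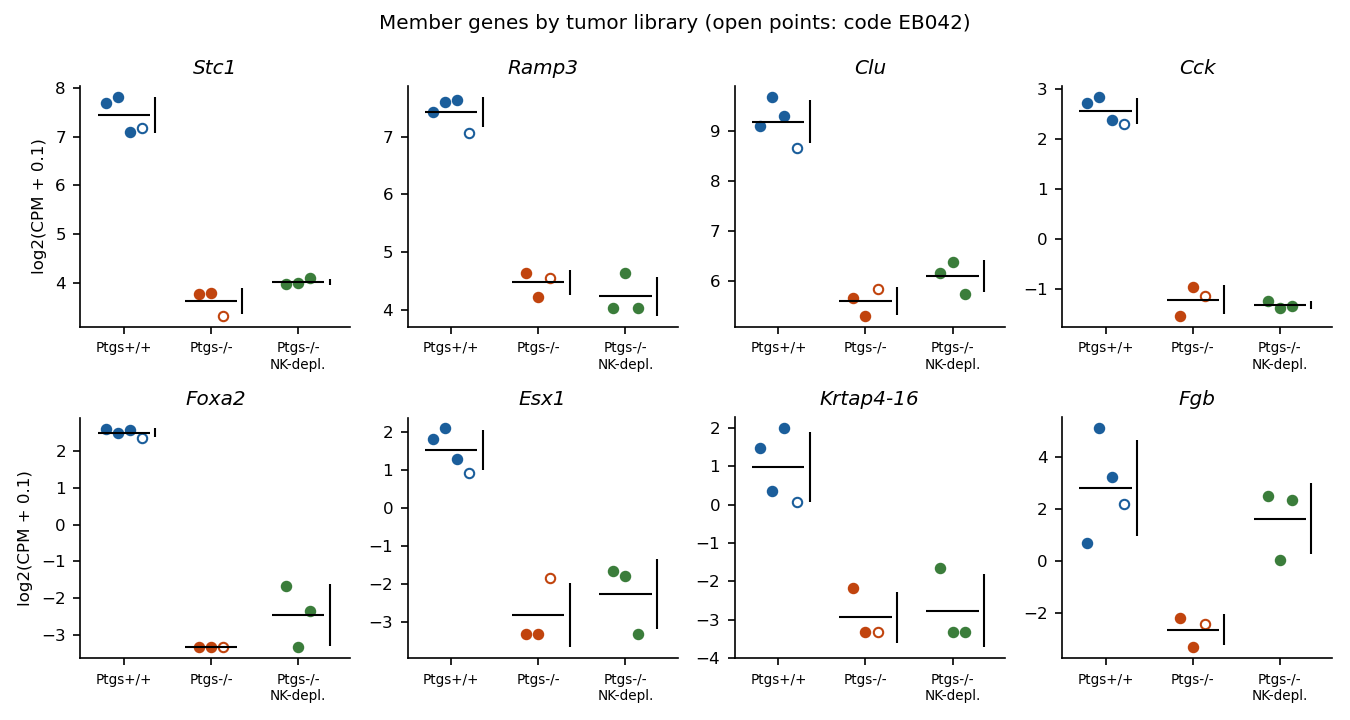
Levels of the 8 genes as log2(CPM + 0.1) in each tumor library of the *Ptgs*+/+ (n = 4), *Ptgs*-/- (n = 3) and NK-depleted *Ptgs*-/- (n = 3) groups, with the group mean (horizontal line) and SD (vertical line), each panel on its own scale, and open points for the libraries of title code EB042. In 7 panels the NK-depleted libraries sit with the other *Ptgs*-/- libraries, and in the *Fgb* panel they sit at 0.929 to 5.47 CPM, within the *Ptgs*+/+ range of 1.51 to 33.8 CPM or just under it.

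The transcription factor genes showed the same pattern from lower levels. *Foxa2* (ENSMUSG00000037025, chromosome 2, 148042877 to 148046969, minus strand) held 74, 51, 64 and 47 counts in *Ptgs*+/+ libraries, a narrow spread of 5.5 ± 0.427 CPM (SD, n = 4). It held 0 counts in all 3 *Ptgs*-/- libraries and 2, 0 and 1 counts in the NK-depleted libraries. Set against a floor of 3 counts per library, *Foxa2* was at least 17.7-fold lower in *Ptgs*-/- tumors, a log2 bound of -4.14. With NK cells depleted, and 3 counts in all, the *Ptgs*+/+ level was 56.0 times higher (18.9 to 273, counting error only), and the fitted log2 fold change was -5.63 (-6.72 to -4.54; edgeR adjusted p = 0.000125). With both *Ptgs*-/- groups at or under the floor, no fold is given between them. *Foxa2* was tested only because of its counts in the *Ptgs*+/+ libraries used to choose it, so its p-value is no independent test of staying low.

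*Esx1* (ENSMUSG00000023443, chromosome X, 137115397 to 137122083, minus strand) held 43, 39, 26 and 17 counts in *Ptgs*+/+ libraries. Counts were 0, 0 and 2 in the *Ptgs*-/- tumors and 2, 2 and 0 after NK depletion. Every library of both *Ptgs*-/- groups was under the floor of 3 counts. The *Ptgs*+/+ level was 43.2 times that of *Ptgs*-/- tumors (11.7 to 360) and 22.2 times that of NK-depleted tumors (8.47 to 82.8), with intervals for counting error only. The fitted log2 fold change in NK-depleted tumors was -4.35 (-5.80 to -2.90; edgeR adjusted p = 0.00154). As for *Foxa2*, the gene passed the filter only through the *Ptgs*+/+ libraries, and the p-value is no independent test.

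*Krtap4-16* (ENSMUSG00000046474, chromosome 11, 99850655 to 99851608, minus strand) had the lowest counts of the 8. *Ptgs*+/+ libraries held 34, 11, 43 and 9 counts, *Ptgs*-/- libraries 1, 0 and 0, and NK-depleted libraries 2, 0 and 0. The fitted log2 fold change in NK-depleted tumors was -4.82 (-6.83 to -2.81; edgeR adjusted p = 0.00579), and the ratio of levels was 34.5 (9.3 to 289, counting error only). *Krtap4-16* too passed the filter only through the *Ptgs*+/+ libraries, so its p-value is no independent test of staying low. Without *Ptgs*+/+ replicate 1, 2 or 3 the gene fell below the filter on low counts and was not tested, leaving 7 of the 8 genes. Of 57 keratin-associated protein genes in the table, 35 had 0 counts in every library, and *Krtap4-16* apart, none exceeded 3 counts in any library. Members of this family are near-identical in parts, so a read of one may be counted on another.

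*Fgb* (ENSMUSG00000033831, chromosome 3, 83040141 to 83049863, minus strand) did not stay low. *Ptgs*+/+ libraries held 19, 315, 102 and 42 counts, or 1.51, 33.8, 9.17 and 4.39 CPM, and *Ptgs*-/- libraries held 1, 0 and 1 counts. NK-depleted *Ptgs*-/- libraries held 51, 10 and 50 counts, or 5.47, 0.929 and 4.89 CPM. All 3 NK-depleted libraries lay above all 3 other *Ptgs*-/- libraries, and 2 of the 3 lay inside the *Ptgs*+/+ range. The log2 fold change against *Ptgs*+/+ tumors was -7.24 (-10.61 to -3.86) in *Ptgs*-/- tumors and -1.69 (-3.58 to 0.20; edgeR adjusted p = 0.237) in NK-depleted ones. With 1 library left out the NK-depleted value ran from -2.07 to -0.42, the latter without *Ptgs*+/+ replicate 2, which held the 315 counts.

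Between the *Ptgs*-/- groups *Fgb* was higher in NK-depleted tumors by a log2 fold change of 5.54 (1.72 to 9.37), the largest rise of the 14550 genes, with an edgeR adjusted p of 0.224 and an unadjusted p of 0.00841. The comparison rests on 2 counts in 3 libraries against 111 counts in 3, and it shares with the choice of the genes the *Ptgs*-/- libraries in which *Fgb* is low. It did not pass the threshold in the edgeR quasi-likelihood fit, but passed it with DESeq2 (5.78; adjusted p = 0.0124), with no filter on low counts (5.55; edgeR adjusted p = 0.00788) and with the edgeR likelihood ratio test (5.55; adjusted p = 0.00067). Over all alternatives the adjusted p of this difference ran from 0.00067 to 0.569. None of these p-values is independent of the choice of the genes.

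*Fgg*, which encodes the gamma chain of fibrinogen and starts 42.1 kb from *Fgb*, had a pattern like that of *Fgb*. Its *Ptgs*+/+ libraries held 13, 66, 127 and 30 counts and its *Ptgs*-/- libraries 0, 7 and 2. The NK-depleted libraries held 103, 45 and 35 counts. Its log2 fold change was -4.16 (-6.36 to -1.95) in *Ptgs*-/- tumors and 0.13 (-1.34 to 1.60; edgeR adjusted p = 0.928) in NK-depleted tumors, and the *Ptgs*-/- groups differed by 4.29 (2.02 to 6.55; edgeR adjusted p = 0.0813). *Fga*, the gene of the alpha chain, was at 0 counts in 8 of the 10 libraries, with 4 counts in *Ptgs*+/+ replicate 3 and 1 count in NK-depleted replicate 2.

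Of 16 genes listed as fibrinogen chains and liver plasma proteins, 8 were tested, 7 of them other than *Fgb*. In *Ptgs*-/- tumors 2 of those 7 were called lower, *Fgg* and *Hp*, and in NK-depleted tumors none of the 7 was called against *Ptgs*+/+. *Hp*, which encodes the acute-phase protein haptoglobin, had a log2 fold change of -2.25 (-3.54 to -0.95) in *Ptgs*-/- tumors and -1.35 (-2.59 to -0.10; edgeR adjusted p = 0.151) in NK-depleted ones. *F10*, which encodes clotting factor X, went the other way, with 1.47 (0.90 to 2.04) in *Ptgs*-/- and 1.1 (0.53 to 1.68; edgeR adjusted p = 0.0183) in NK-depleted tumors, past the FDR alone in both. *Ptgs*-/- replicate 1 was the lowest library for *Hp*, at 54.7 CPM against 265 and 486 CPM in the other two. It was also the lowest for the adipocyte markers *Adipoq*, at 27.8 CPM against 145 and 361, and *Cfd*, at 208 CPM against 1290 and 2650. The 8 adipocyte markers summed to 1670 to 8360 CPM in *Ptgs*+/+, 404 to 4840 CPM in *Ptgs*-/- and 2750 to 5830 CPM in NK-depleted tumors, and 0 of them were called in any of the 3 comparisons. *Alb*, which encodes albumin and marks hepatocytes, held 0 to 34 counts in every library, *Ttr* and *Plg* were at 0 in all libraries, and the summed level of the 8 hepatocyte markers, *Fgg* among them, was 5.4 to 39.6 CPM in *Ptgs*+/+ tumors, 2.91 to 20.9 CPM with COX lost and 25 to 30.7 CPM after NK depletion. Skeletal muscle markers stood at a summed 2210 to 5240 CPM in NK-depleted tumors against 102 to 357 CPM in *Ptgs*-/- and 32.0 to 170 CPM in *Ptgs*+/+ tumors, with 8 of 8 called higher than in *Ptgs*+/+ tumors. The part of muscle, fat or other host tissue in the *Fgb*, *Fgg* and *Hp* values was not tested.

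**Figure D2:**
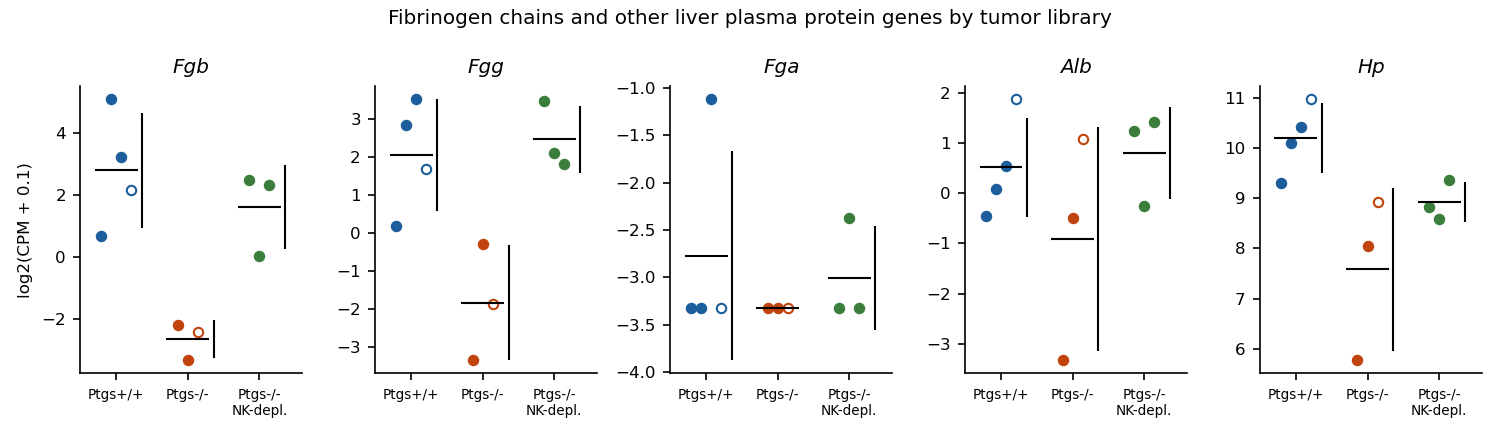
Levels of *Fgb*, the other fibrinogen chain genes *Fgg* and *Fga*, and the liver plasma protein genes *Alb* and *Hp* as log2(CPM + 0.1) per tumor library, with group mean and SD, n = 4, 3 and 3, each panel on its own scale, and open points for title code EB042. *Fgb* and *Fgg* are low in the *Ptgs*-/- libraries (0 to 7 counts) and higher in the NK-depleted ones (10 to 103 counts), while *Alb* overlaps between all groups.

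Counted together, 7 of the 8 genes were called lower in NK-depleted *Ptgs*-/- tumors than in *Ptgs*+/+ tumors, where 0.701% of the 14550 genes were. *Fgb* was the exception. *Cck*, *Foxa2*, *Fgb*, *Esx1* and *Krtap4-16* passed the filter on low counts through the *Ptgs*+/+ libraries, since with only the *Ptgs*-/- groups in the fit 3 of the 8 genes passed it. That all 8 were called lower in *Ptgs*-/- tumors, where 1.01% of genes were, was fixed by their choice on these libraries. The count in NK-depleted tumors uses the same *Ptgs*+/+ libraries in which the genes were chosen to be high, so it is not independent of the choice. The same 7 genes had no overlap between NK-depleted and *Ptgs*+/+ libraries, which 13.1% of genes had in that direction. Their log2 fold changes ranked between 4 and 22 from the lowest of the 14550, with *Foxa2* lowest of the 8 and *Clu* the highest of the 7. The median over the 8 genes was -3.86 in NK-depleted tumors and -4.64 in *Ptgs*-/- tumors, or -4.11 with *Foxa2* at its bound, against -0.01 over all genes in both comparisons.

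Between NK-depleted and other *Ptgs*-/- tumors 0 of the 8 genes were called in the edgeR quasi-likelihood fit, where 1.15% of genes were called in either direction, and DESeq2 called 1, *Fgb*. At an unadjusted p under 0.05 there were 2, *Foxa2* and *Fgb*, where 11.2% of genes passed, and *Foxa2* rests there on 3 counts against 0. *Stc1* and *Fgb* had no overlap between these groups, both with NK-depleted libraries higher, as 8.32% of genes had. A p over the threshold does not show that the groups are alike. The intervals left room for a log2 difference of up to 0.85 in *Stc1*, 1.04 in *Clu*, and 0.22 upward and 0.66 downward in *Ramp3*. For *Cck* the fitted interval left room for 0.81 upward and 1.17 downward. It rests on 10 counts in *Ptgs*-/- and 9 in NK-depleted libraries, close to the floor. By counting error alone the *Ptgs*-/- level was 0.418 to 3.18 times the NK-depleted level, a wider range than the fitted interval.

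**Figure D3:**
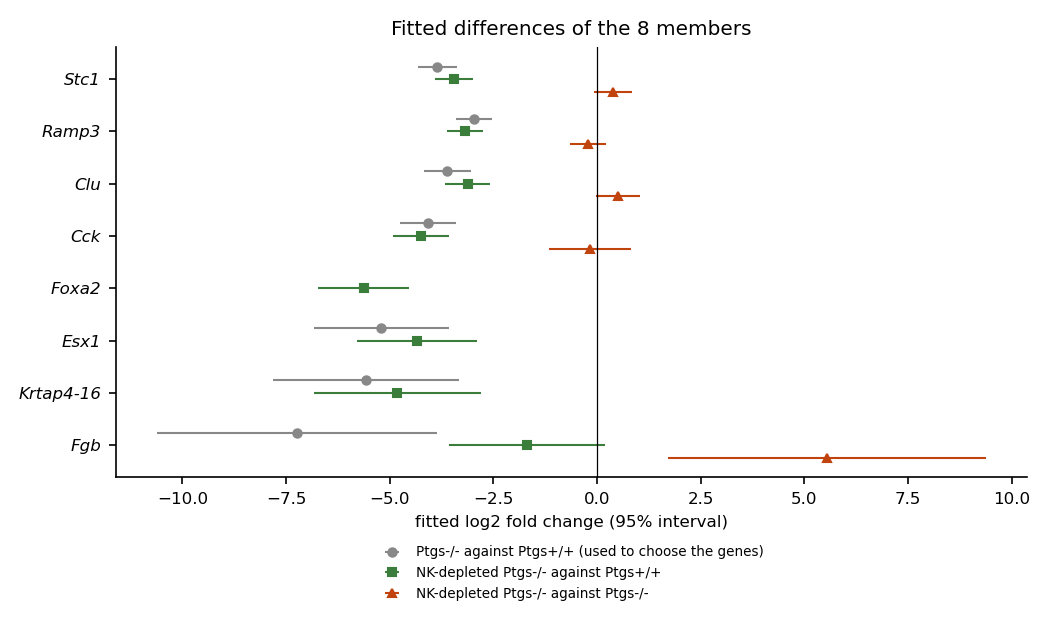
Fitted log2 fold change (x axis) with its 95% interval for each of the 8 genes (y axis) in 3 comparisons, of which the gray one chose the genes. *Foxa2* in the gray comparison and *Foxa2*, *Esx1* and *Krtap4-16* between the *Ptgs*-/- groups are left out: *Foxa2* had 0 counts in every *Ptgs*-/- library, and the other 3 values compare groups that were both at or under the floor of 3 counts in every library. For 7 genes the NK-depleted value lies between -5.63 and -3.11, and for *Fgb* it is -1.69 with an interval that reaches 0.20.

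The libraries carry the title code EB046, apart from *Ptgs*+/+ replicate 4 and *Ptgs*-/- replicate 3, which carry EB042, and what the codes stand for is not given. All NK-depleted libraries are EB046. Among EB046 libraries alone the same 7 genes were called lower in NK-depleted tumors, with a median of -3.93, and *Fgb* was at -1.96 (edgeR adjusted p = 0.211). In that fit 423 of 14749 genes were called in either direction between NK-depleted and *Ptgs*+/+ tumors. Its *Ptgs*+/+ libraries are among those used to choose the genes, so these calls are not independent of the choice. EB042 holds 1 library of each of 2 groups and gives no test.

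The targeted genes and the cell markers bear on how far the groups are what their labels say. *Ptgs2* was at 259 ± 112 CPM (SD, n = 4) in *Ptgs*+/+ tumors, 42.3 ± 27.4 (n = 3) with COX lost and 44.8 ± 4.48 (n = 3) after NK depletion, and *Ptgs1* at 155 ± 19.3, 92.1 ± 14.4 and 96.3 ± 1.93 CPM. Host cells carry intact *Ptgs* genes, and 3′ tags may still be made from an edited gene, so the remaining counts do not check the edit. Markers of NK cells summed to 12.1 to 29.8, 69.6 to 158 and 0.979 to 3.25 CPM in the 3 groups in that order. Of the melanocytic markers, *Mitf* was at 17.4 to 32.7 CPM, *S100b* at 6.0 to 29.8 CPM and *Sox10* at 0.205 to 5.67 CPM. The pigment genes *Tyr*, *Tyrp1*, *Mlana* and *Gpr143* had 0 to 2 counts in every library, and *Pmel* and *Dct* had 0 to 8. The 8 neutrophil markers summed to 377 to 612 CPM in *Ptgs*+/+ tumors, 67.5 to 96.9 CPM with COX lost and 127 to 185 CPM after NK depletion, sums carried by *Mmp9*, *S100a8* and *S100a9*. Of the 7 tested, 2 were called lower in NK-depleted than in *Ptgs*+/+ tumors, *Mmp9* (-2.54) and *S100a9* (-1.56), and 1 higher, *Retnlg* (1.77). *Csf3r* differed there by 0.42 (-0.17 to 1.01), and *Ly6g* had 0 to 5 counts in each library. The endothelial markers summed to 370 to 419, 142 to 328 and 242 to 351 CPM. The part of these cells in the levels of the 8 genes was not tested.

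Relatives of the 8 genes mostly moved less. *Stc2*, the other stanniocalcin gene, was lower by a log2 fold change of -1.37 (-1.77 to -0.97) in *Ptgs*-/- tumors and -1.05 (-1.44 to -0.66; edgeR adjusted p = 0.00303) in NK-depleted tumors, past the FDR but short of the fold threshold. As background, 5.87% of genes reached the FDR alone downward and 6.63% upward in NK-depleted tumors.

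Of 10 genes listed for the adrenomedullin and calcitonin gene-related peptide system, 5 were tested, 4 of them other than *Ramp3*. *Ramp1*, the partner that makes the calcitonin gene-related peptide receptor, was opposite to *Ramp3*. It was at 2.46, 3.86, 2.88 and 1.88 CPM in *Ptgs*+/+ tumors, 4.49, 8.39 and 8.61 CPM with COX lost and 8.26, 7.90 and 12.6 CPM in NK-depleted ones. It rose in NK-depleted tumors by 1.79 (1.15 to 2.44; edgeR adjusted p = 0.00252), where 2.01% of genes were called higher, and in *Ptgs*-/- tumors by 1.38 (0.72 to 2.04), short of the fold threshold. *Calcrl*, the shared receptor, differed by 0.27 (-0.08 to 0.63) and *Ramp2* by -0.14 (-0.80 to 0.53) in NK-depleted tumors. *Adm*, which encodes the ligand adrenomedullin, was lower by -1.34 (-2.09 to -0.59; edgeR adjusted p = 0.0257), past the FDR alone.

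**Figure D4:**
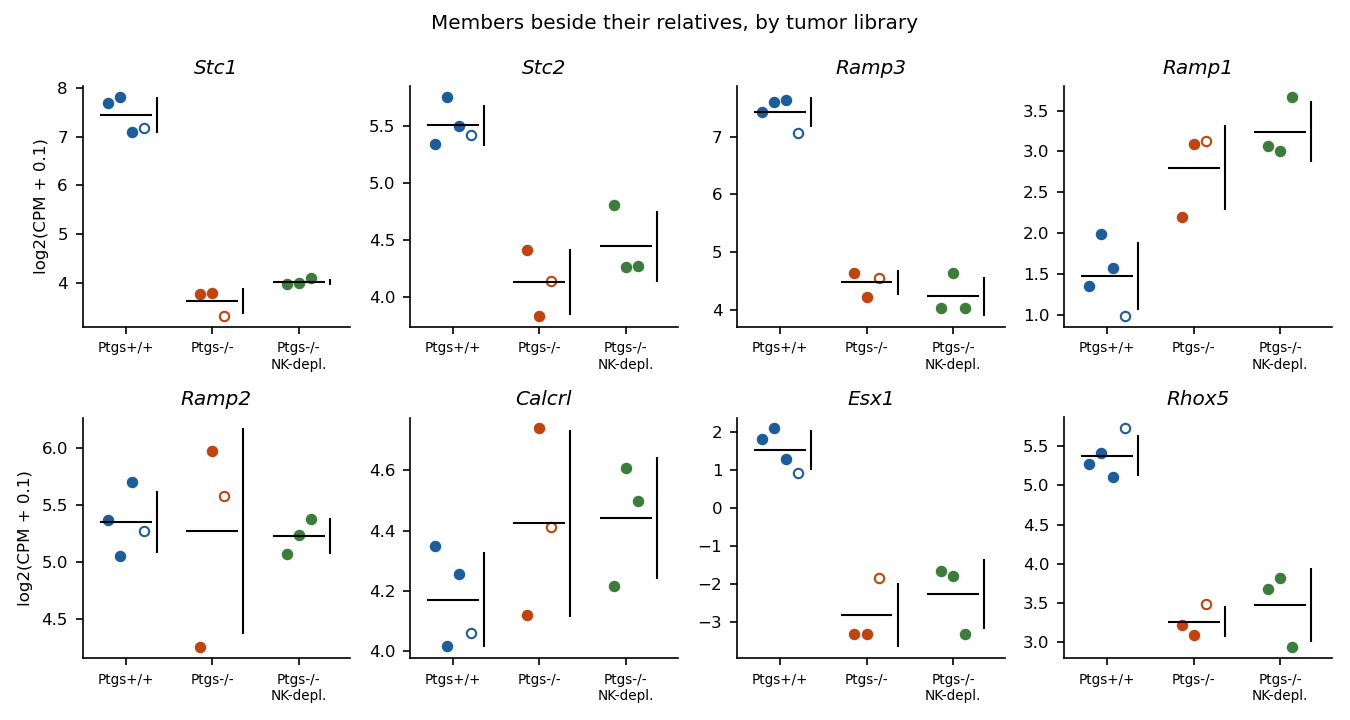
Levels of *Stc1*, *Ramp3* and *Esx1* beside their relatives as log2(CPM + 0.1) per tumor library, with group mean and SD, n = 4, 3 and 3, each panel on its own scale, and open points for title code EB042. *Stc2* and *Rhox5* are lower in both *Ptgs*-/- groups, *Ramp1* is higher (1.88 to 3.86 CPM in *Ptgs*+/+ against 4.49 to 12.6 CPM in the others), and *Ramp2* and *Calcrl* overlap between groups.

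For *Cck*, 16 genes of the cholecystokinin system and of peptide hormone maturation were listed and 7 others were tested. *Chga*, the granule protein chromogranin A, was the one called, lower by -1.88 (-3.06 to -0.71) in *Ptgs*-/- tumors and -1.89 (-3.06 to -0.71; edgeR adjusted p = 0.0405) in NK-depleted ones. The cholecystokinin receptor genes *Cckar* and *Cckbr* had at most 1 count in any library. *Cpe*, a carboxypeptidase that trims such hormones, was at 345 ± 50.8 CPM in *Ptgs*+/+ tumors and 598 ± 17.7 CPM in NK-depleted ones.

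For *Clu*, 0 of the 7 other tested genes among its related apolipoproteins and receptors were called in either comparison with *Ptgs*+/+. By FDR alone in NK-depleted tumors, the lipoprotein receptor gene *Lrp8* was lower (-0.79; -1.11 to -0.48; edgeR adjusted p = 0.00467) and the related receptor gene *Vldlr* was higher (1.08; 0.62 to 1.54; edgeR adjusted p = 0.00635).

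For *Foxa2*, 12 FOXA factors and endoderm regulators were listed and 3 others were tested, *Foxa1*, *Gata6* and *Sox17*, of which 0 were called in the comparisons with *Ptgs*+/+ tumors. *Foxa1* counts were 68, 163, 78 and 85 with COX, 3, 6 and 80 in *Ptgs*-/- tumors and 101, 47 and 75 after NK depletion, so that *Ptgs*-/- replicate 3 lay within the *Ptgs*+/+ range. *Pdx1* was at 0 in all libraries, and *Hnf4a*, *Gata4* and *Foxa3* had at most 2 counts in any.

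For *Esx1*, 15 placental genes and X-linked homeobox genes were listed and 5 others were tested. *Rhox5*, another X-linked homeobox gene, fell by a log2 fold change of -2.13 (-2.62 to -1.64) in *Ptgs*-/- tumors and -1.88 (-2.36 to -1.40; edgeR adjusted p = 0.000266) in NK-depleted ones. *Peg10*, an imprinted placental gene, was lower by -1.22 (-1.80 to -0.64; edgeR adjusted p = 0.0118) in NK-depleted tumors, short of the fold threshold. *Tfap2c*, a trophoblast transcription factor gene, was called lower in *Ptgs*-/- tumors (-2.31; -3.79 to -0.82) and was at -0.69 (-1.99 to 0.61; edgeR adjusted p = 0.509) in NK-depleted ones. For *Krtap4-16*, 1 of 12 listed hair keratins and hair regulators was tested, the regulator gene *Lef1*, and it was not called. No gene of that list exceeded 21 counts in a library. The keratin gene *Krt36*, which the list does not hold, was called higher in *Ptgs*-/- (2.27) and in NK-depleted tumors (1.86), opposite to *Krtap4-16*.

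The genes around the 8 were mostly near 0 on the log2 scale. Within 500 kb lie 62 tested genes, whose median difference from *Ptgs*+/+ tumors on the log2 scale was -0.09 in *Ptgs*-/- and -0.04 in NK-depleted tumors. *Clu* and *Stc1* lie 3048 kb apart on chromosome 14, and the 16 tested genes between them had medians of -0.09 and -0.16. Near *Esx1*, *Tceal3*, an elongation factor-like gene, fell by -3.67 in NK-depleted tumors (-4.86 to -2.48; edgeR adjusted p = 0.00135). Near *Krtap4-16*, the keratin gene *Krt12* fell by -4.01 (-4.80 to -3.23; edgeR adjusted p = 6.8e-05), whereas the keratin genes *Krt20* and *Krt36* rose by 2.0 and 1.86 (edgeR adjusted p = 9.3e-05 and 0.0314). Near *Cck*, the muscle genes *Klhl40* and *Hhatl* were called higher in NK-depleted tumors, by 2.65 and 5.41. *Fgb* lies on chromosome 3, where the median of 808 tested genes was -0.19 in *Ptgs*-/- and -0.21 in NK-depleted tumors.

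**Figure D5:**
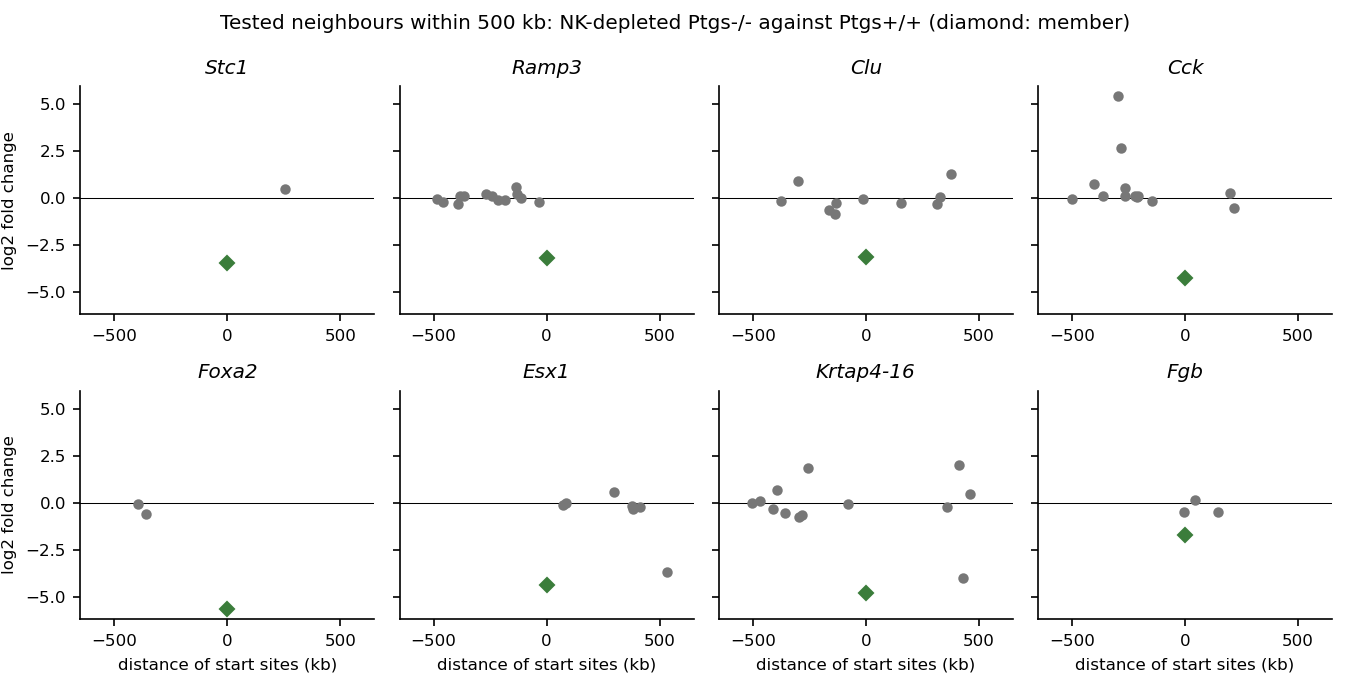
Fitted log2 fold change of NK-depleted *Ptgs*-/- against *Ptgs*+/+ tumors (y axis) for tested genes whose bodies lie within 500 kb of each of the 8 genes, by the distance between start sites in kb (x axis), with the named gene as a diamond. Of the 62 gray points, those of *Tceal3* near *Esx1* (-3.67) and *Krt12* near *Krtap4-16* (-4.01) are the lowest, and those of *Hhatl* (5.41) and *Klhl40* (2.65) near *Cck* stand highest.

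Outside the 8, the genes whose log2(CPM + 1) over the 10 libraries was most like the mean profile of the 8 were *Shroom3*, *Smc4*, *Krt12* (each with a Pearson r of 0.991), *Ppbp*, *Pigk* (0.988), *Nr4a2* (0.987), *Cyp26b1*, *Uck2* (0.984), *Pole3* and *Eif4e* (0.983). These values describe libraries that share 3 groups and carry no test. Pearson r does not measure the size of a fall, which differed among these 10 genes. Mean CPM in *Ptgs*+/+, *Ptgs*-/- and NK-depleted tumors was 95.6, 69.2 and 73.2 for *Pigk*, against 16.2, 0.578 and 0.994 for *Krt12*. The 8 genes' own r with that profile, of which each is a part, was 0.91 to 0.994 for 7 of them and 0.712 for *Fgb*. *Nr4a2*, a nuclear receptor gene known to respond to cyclic AMP, was at 141 ± 33.1 CPM in *Ptgs*+/+ tumors, 24.4 ± 6.23 with COX lost and 28.7 ± 2.71 in NK-depleted ones (SD, n = 4, 3 and 3). *Ppbp*, which encodes a platelet chemokine, was at 20.2 ± 4.55, 0.66 ± 0.334 and 1.85 ± 0.193 CPM, with the NK-depleted libraries all above the other *Ptgs*-/- libraries (edgeR adjusted p = 0.107). By Spearman rho 0 of these 10 genes would have been named.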

How the data were processed

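The authors prepared QuantSeq 3′ libraries from bulk tumor RNA, trimmed the first 12 bases, contaminants and trailing polyA and polyG with BBDUK, fqtrim and cutadapt, mapped the reads to GRCm38 (STAR) and assigned them to Ensembl version 86 genes (featureCounts). The deposited values are raw counts, 1 column per library, and are not normalized. The sample titles do not say whether a library is of 1 tumor or of a pool. The strand setting and the handling of reads that match several genes are not given in the sources used here, so near-identical, overlapping and antisense genes are uncertain. *Stc1* and *Ramp3* overlap annotated genes of the other strand, of which *Gm11978*, at *Ramp3*, held 1 count.

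The 10 libraries held 8150556 to 12839174 counts. Symbols, for 45143 of 45706 identifiers, and coordinates came from GENCODE release M21 on the same build. Counts were fitted in R 4.3.3 with edgeR 4.0.16 (filterByExpr, TMM, quasi-likelihood test) over 3 groups in 1 model, with p-values adjusted by the Benjamini-Hochberg method over 14550 genes, and calls were made at an FDR of 0.05 and a log2 fold change of 1.5. CPM uses TMM-scaled library sizes. The fit was tested on simulated data. Alternatives were DESeq2 1.42.0, library size alone, other filters, a likelihood ratio test, only the groups compared, the title code as a term or 1 code alone, the title number as a replicate block, each library left out and, for similar genes, another pseudocount and Spearman rho. The labels do not say whether replicates are separate mice, so p-values measure the spread between these samples.

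The genes and the gene lists were chosen with earlier results of these data known. Named genes are the 8, *Ptgs1* and *Ptgs2*, the 10 most similar genes, genes of each list that were called or most highly expressed, called neighbors within 500 kb, and markers. Genes named outside this rule (such as *Fga*, *Foxa1*, *Peg10*, *Cckar*) were chosen after their values were seen. Some genes of these lists are not reported here.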

Additional observations from a re-analysis of the deposited data

Results flagged for a closer look

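*Fga*, the fibrinogen alpha chain gene, was flagged in *Ptgs*+/+ tumors because 1 library, replicate 3, stood far from the other 3 by Dixon's criterion. It was at 0.36 CPM there (4 counts) and at 0 in the others. It was 1 of 12 groups of 4 libraries examined. With the other 3 libraries at 0, the criterion flags any nonzero count, so a chance rate of 1 in 20 does not apply here. The value is at the level of the floor of 3 counts.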

How the results depend on the processing

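Over the alternatives, the 7 genes other than *Fgb* stayed lower in NK-depleted *Ptgs*-/- than in *Ptgs*+/+ tumors and past the threshold wherever they were tested. *Fgb* did not pass it there in any. Each of these fits uses *Ptgs*+/+ libraries in which the genes were chosen to be high, so these calls are not independent of that choice. Between the *Ptgs*-/- groups the count called was 1 (*Fgb*), in place of 0, with DESeq2, with no filter and with the likelihood ratio test, where its log2 fold change was 5.78, 5.55 and 5.55. With each library left out the count called there was 0 to 0, and against *Ptgs*+/+ tumors it was 6 to 7 in NK-depleted tumors, with 6 of 7 tested genes without *Ptgs*+/+ replicate 1, 2 or 3, when *Krtap4-16* was not tested, and 7 of 8 otherwise. The medians over the genes tested were -4.77 to -3.97 in *Ptgs*-/- and -3.94 to -3.33 in NK-depleted tumors, where the ends nearest 0 are medians over 7 genes, without *Krtap4-16*. Between the *Ptgs*-/- groups *Krtap4-16* was at 0.76, and at -1.94 to 2.71 with 1 library left out, negative without NK-depleted replicate 1, on 1 count against 0. By Spearman rho 0 of the 10 similar genes were shared. With only the *Ptgs*-/- groups in the fit, 3 of the 8 genes, *Stc1*, *Ramp3* and *Clu*, passed the filter.

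With the title number as a replicate block, *Fgb* differed between the *Ptgs*-/- groups by 5.78 (edgeR adjusted p = 0.265), and no call on the 8 genes changed. The numbers do not pair the samples: of 11 pairs with the same number, 4 had a correlation of deviations over 0.1, with a range of -0.296 to 0.387. Depth limits *Foxa2*, *Esx1*, *Krtap4-16* and *Cck* in the *Ptgs*-/- groups, where 3 counts are the floor.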

Other observations

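By chromosome, the tested genes had medians near 0 on the log2 scale in both comparisons with *Ptgs*+/+ tumors, with 3 chromosomes, picked out after their values were seen, apart from the rest. Chromosome 3, which carries *Fgb* and *Fgg*, was at -0.19 in *Ptgs*-/- and -0.21 in NK-depleted *Ptgs*-/- tumors (808 genes), chromosome 12 at -0.2 and -0.17 (478 genes), and chromosome 15 at 0.24 and 0.26 (558 genes). The other chromosomes, X included, lay between -0.12 and 0.09. Between the *Ptgs*-/- groups the medians of chromosomes 3, 12 and 15 were 0.01, 0.03 and 0.05. Both comparisons share the *Ptgs*+/+ libraries and were not tested by chromosome. Of the 8 genes, *Fgb* is the one that lies on any of these chromosomes.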
